A study of Rattus norvegicus with 9 samples.

Results

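The genes described here were Gfap, Vim, Nes and Synm, which encode intermediate filament proteins of glial cells and neural progenitors. They were chosen by name, with earlier results of these data known, and all 4 were among the 23953 genes counted and among the 15458 genes that passed the filter on low counts over the 3 groups. Expression was measured by RNA sequencing of neural stem cells (NSCs), labelled as isolated from rat spinal cord, in 3 groups of 3 libraries each. The Con group was kept in differentiation medium alone, which all 3 groups shared. The Exo group also received exosomes (BMSC-Exos), the small vesicles shed by rat bone marrow mesenchymal stem cells. The pLV-Exo-Wnt5a group received exosomes of BMSCs that a lentiviral vector made overexpress Wnt5a, a secreted Wnt ligand. By the study's methods, the donor BMSCs of the Exo group carried the same kind of vector without an insert, whereas the labels name only BMSC-Exos for it. The labels give the same batch entry for all 9 libraries. The day of RNA collection and the exosome dose were not given in the sources used here.

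Intermediate filaments are rope-like polymers that give cells their shape and resistance to strain. GFAP (type III) is the main filament protein of mature astrocytes and rises when astrocytes react to injury, and vimentin (Vim, type III) is used by radial glia, immature and reactive astrocytes and mesenchymal cells. Nestin (Nes, type IV) marks neural progenitors and forms filaments only together with partners such as vimentin, and synemin (Synm, type IV) is a further partner that joins these filaments to attachment sites in the cell.

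In these libraries, Gfap and Vim transcripts were higher in pLV-Exo-Wnt5a libraries than in Exo libraries, whereas the differences of Nes and Synm did not pass the test. The Gfap difference was 1.82-fold and held under each of the 15 alternative settings tried. The Vim difference was 1.54-fold and held under 9 of them. None of the 4 genes passed the edgeR test between the Exo and Con groups or between the pLV-Exo-Wnt5a and Con groups, although Gfap passed in the latter under 6 of the 15 alternatives, DESeq2 among them.

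The sequences upstream of Gfap and Vim are shown because these are the genes that rose together. All 4 genes were matched by symbol to RefSeq for the rat (build GRCr8). The 250 bases before the annotated start lie at chr10:88361662-88361911 on the minus strand for Gfap and at chr17:81577011-81577260 on the plus strand for Vim, and each is printed 5′ to 3′ along its gene. Capitals mark a TATA box (TATAAA) and a CCAAT box, which reads ATTGG because it lies on the opposite strand.
Gfap upstream: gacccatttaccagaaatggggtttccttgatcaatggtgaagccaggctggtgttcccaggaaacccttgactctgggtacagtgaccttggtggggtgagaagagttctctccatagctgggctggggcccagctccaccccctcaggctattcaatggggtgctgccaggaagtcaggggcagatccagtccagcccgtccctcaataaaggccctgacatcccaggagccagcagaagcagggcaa
Vim upstream: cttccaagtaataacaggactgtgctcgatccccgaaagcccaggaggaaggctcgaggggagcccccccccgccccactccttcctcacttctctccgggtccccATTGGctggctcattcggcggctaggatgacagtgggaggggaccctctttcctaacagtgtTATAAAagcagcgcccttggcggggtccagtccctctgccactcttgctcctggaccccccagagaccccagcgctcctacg

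A search for 5 motifs was made on both strands of these windows, with no overlap between the matches that were found. The TATA box TATAAA was in the Vim window at bases -82 to -77 from the start and in 12.9% of 33469 rat windows of the same length. The CCAAT box was in the Vim window at -144 to -140 and in the Synm window, against 34.0% of all windows. The GC box GGGCGG was in the Vim window at -180 to -175 (not in capitals) and in the Nes window in 2 copies, against 30.5% of all windows. TTCNNNGAA, the spaced palindrome bound by STAT factors, was in none of the 4 windows and in 7.67% of all windows, and the AP-1 motif (TGA and TCA with any base between) was in none of the 4 and in 6.34% of all windows. None of the 5 motifs was found in the Gfap window, which says only that these letters are not in it. The count table carries mouse gene symbols and NCBI gene numbers of mouse (14580 for Gfap, 22352 for Vim, 18008 for Nes and 233335 for Synm) although the cells are labelled rat, so the rat sequences show the genes of the labelled organism and not the annotation that was counted.

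The libraries held 32765138 to 40427647 counts each, and values are given as CPM (counts scaled to 1000000 per library) after TMM normalization, a method that sets libraries on a common scale. Con replicate 1 stood apart, with a mean distance of 76.6 to the other libraries on the log2 CPM scale, against 59.7 to 66.0 for the others. Tests of the 4 genes against the Con group are therefore given with and without it. Gene lengths were not used, so levels are compared between groups for a gene and not between genes. As a check of the cell type label, all 11 listed NSC markers passed the filter on low counts, Sox2 among them, but so did all 13 astrocyte and all 10 neuron markers and 8 of 9 oligodendrocyte markers. In such bulk cultures, more cells of a type and more RNA per cell cannot be told apart.

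**Figure D1:**
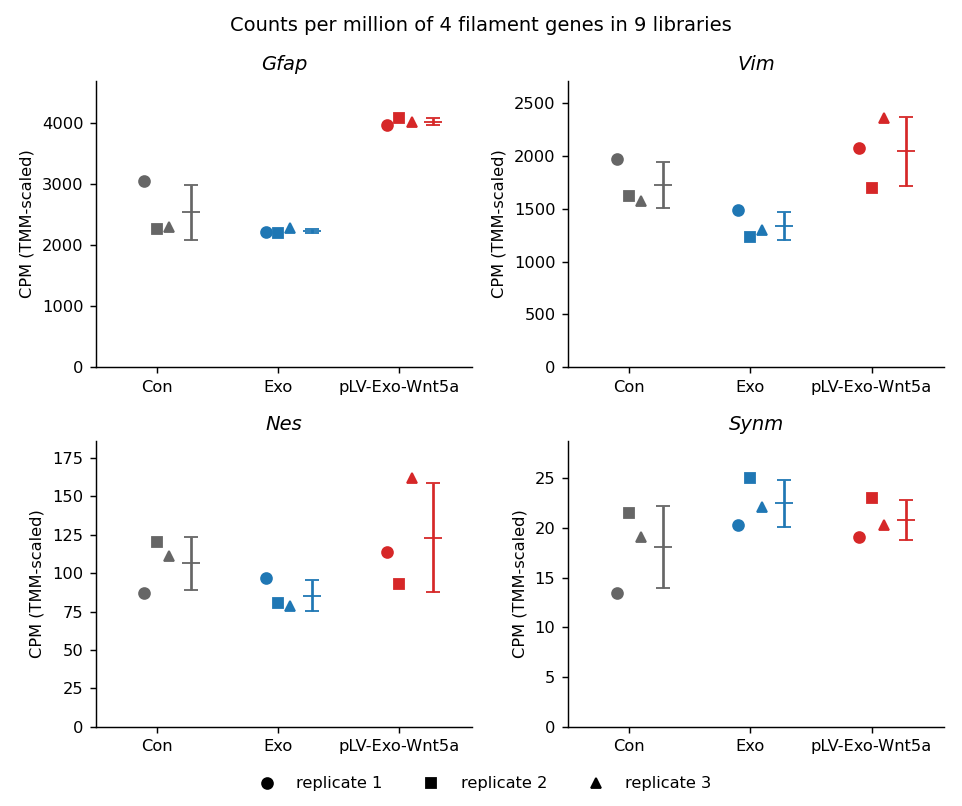
TMM-scaled CPM of Gfap, Vim, Nes and Synm (y axes, from 0) in each of the 9 libraries by group (x axis), with replicates as symbols and the group mean ± SD beside them (n = 3). The 3 pLV-Exo-Wnt5a libraries lie between 3969 and 4080 CPM for Gfap, above all other libraries, and the groups overlap for Nes and Synm.

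Gfap, the filament protein of mature astrocytes, stood at 3969, 4080 and 4028 CPM in pLV-Exo-Wnt5a replicates 1, 2 and 3. In the Exo group it stood at 2222, 2204 and 2277 CPM, and in Con libraries at 3054, 2261 and 2302 CPM. The pLV-Exo-Wnt5a libraries were above all 6 others, and the Exo libraries lay close to Con replicates 2 and 3. The means were 4026 ± 55.7 CPM in pLV-Exo-Wnt5a libraries, 2234 ± 38.0 CPM in Exo libraries and 2539 ± 446 CPM in Con libraries (SD, n = 3 each). The coefficient of variation was 1.38% and 1.70% in the exosome groups and 17.6% in Con libraries, where replicate 1 was the high library. Counting error was at most 0.364% in any library, below the spread between replicates.

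Vim, the filament protein that immature and reactive astrocytes share with mesenchymal cells, stood at 2076, 1697 and 2358 CPM in pLV-Exo-Wnt5a libraries. It stood at 1485, 1231 and 1303 CPM in Exo libraries and at 1976, 1625 and 1572 CPM in Con libraries. The Exo libraries were the lowest 3 of the 9, while the pLV-Exo-Wnt5a and Con libraries overlapped. The means were 2044 ± 331, 1340 ± 131 and 1724 ± 219 CPM in the pLV-Exo-Wnt5a, Exo and Con groups (SD, n = 3 each).

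Nes, the progenitor filament gene, stood at 114, 92.7 and 162 CPM in pLV-Exo-Wnt5a libraries, at 96.8, 80.3 and 78.4 CPM in Exo libraries and at 87.2, 120 and 111 CPM in Con libraries. The highest value, in pLV-Exo-Wnt5a replicate 3, lay apart from the other 2 libraries of its group, and all groups overlapped. The means were 123 ± 35.5, 85.2 ± 10.1 and 106 ± 17.1 CPM in the same order (SD, n = 3 each). Synm, the partner that tethers filaments, stood at 19.1, 23.0 and 20.3 CPM in pLV-Exo-Wnt5a libraries, at 20.3, 25.0 and 22.1 CPM in Exo libraries and at 13.5, 21.5 and 19.1 CPM in Con libraries. Its means were 20.8 ± 1.99, 22.5 ± 2.39 and 18.1 ± 4.13 CPM (SD, n = 3 each), and all groups overlapped. Counting error reached 4.39% for Synm, in Con replicate 1, where it had 520 counts.

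In the order of group means, pLV-Exo-Wnt5a was followed by Con and then Exo for Gfap, Vim and Nes. For Synm the Exo mean was highest and the Con mean lowest. Of the neighbours in these orders, none differed past the edgeR threshold, and by DESeq2 the pLV-Exo-Wnt5a and Con groups differed for Gfap. Con replicate 1 was the highest Con library for Gfap and Vim and the lowest for Nes and Synm.

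The comparison of the pLV-Exo-Wnt5a and Exo groups sets exosomes of Wnt5a-overexpressing BMSCs against exosomes of BMSCs without added Wnt5a. Any other difference between these exosome preparations cannot be told apart from that of Wnt5a. The log2 fold change (log2FC) of Gfap was 0.86 (SE 0.05, 95% interval 0.74 to 0.98), with an edgeR quasi-likelihood Q of 3.36e-05, where Q is the p-value adjusted over all 15132 genes tested. Ranked by p, Gfap was gene 3 of those tested. For Vim the log2FC was 0.62 (SE 0.11, interval 0.38 to 0.86, edgeR Q 0.0389). Both were called higher at a Q under 0.05, a call made for 0.344% of the genes tested. Neither reached a fold change of 2, and for Gfap the interval of the fold was 1.68 to 1.97. The pLV-Exo-Wnt5a libraries did not overlap the Exo libraries for these same 2 genes, on the higher side, as for 7.5% of the genes tested.

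Nes did not pass the test in this comparison, at a log2FC of 0.54 (SE 0.17, interval 0.18 to 0.91, edgeR Q 0.212). Its unadjusted p was 0.00770, so that 3 of the 4 genes were under an unadjusted 0.05, against 12% of the genes tested. Synm had a log2FC of -0.10 (SE 0.11, interval -0.35 to 0.15, edgeR Q 0.790), an interval that leaves out rises as large as the Gfap and Vim estimates.

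**Figure D2:**
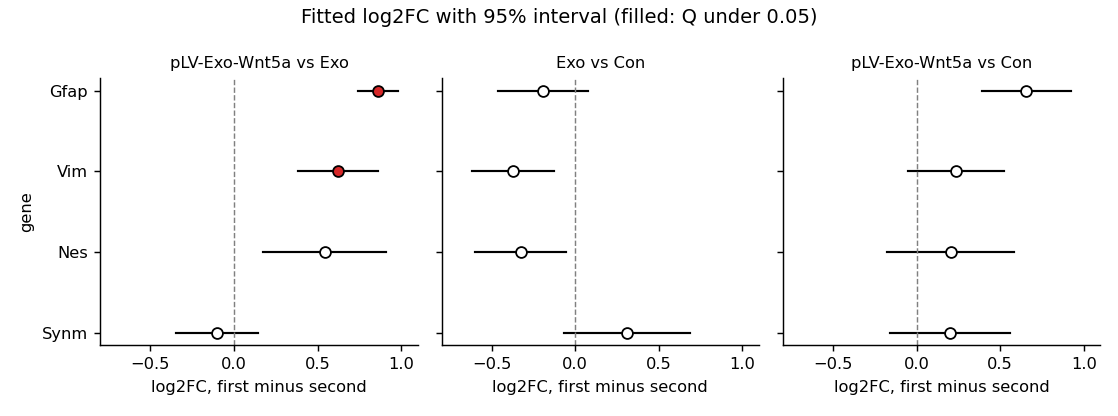
Fitted log2FC (x axis, first group minus second) of the 4 genes (y axis) in the 3 comparisons, with bars for the 95% interval and filled points for Q under 0.05 (edgeR, 6 libraries per comparison). Gfap at 0.86 and Vim at 0.62 in pLV-Exo-Wnt5a versus Exo are the filled points.

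Vim passed the threshold by a narrow margin and Gfap by a wide one. Over the 15 alternatives, Gfap had a log2FC of 0.85 to 0.88 with a largest Q of 0.00317. Vim kept its direction, with a log2FC of 0.50 to 0.74, but its Q depended on which library was left out. It was 0.268 and 0.0755 when Exo replicates 2 and 3 were removed, and 0.144 and 0.0831 when replicates 1 and 3 of pLV-Exo-Wnt5a were removed. With DESeq2 on the same 6 libraries the adjusted p was 5.91e-55 for Gfap and 1.75e-05 for Vim, and the 2 calls were the same, as for 3% of the genes it gave an adjusted p. The pLV-Exo-Wnt5a replicate 3 library was the highest of all for both Vim and Nes, and without it the log2FC of Nes was 0.28.

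**Figure D3:**
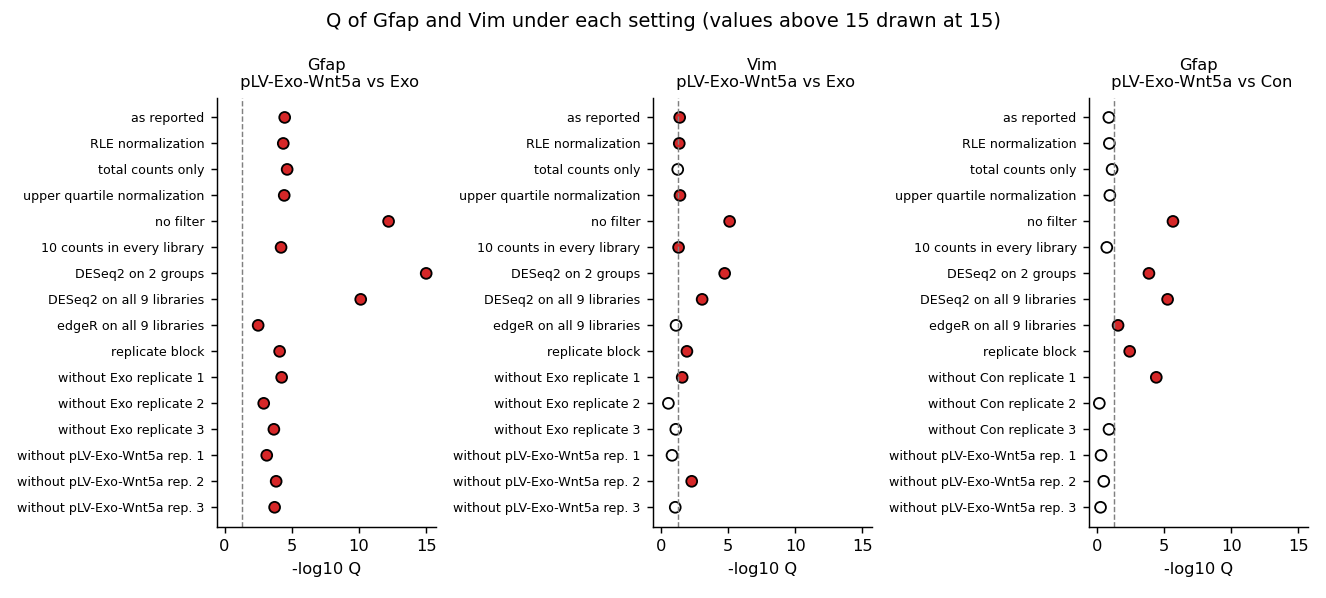
The -log10 of Q (x axis) for Gfap and Vim in pLV-Exo-Wnt5a versus Exo and for Gfap in pLV-Exo-Wnt5a versus Con, for the analysis as reported and 15 alternatives (y axis), with filled points past a Q of 0.05 (dashed line). All Gfap points of the first panel are filled, Vim is filled under 9 of the alternatives, and Gfap against Con is filled under 6.

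The comparison of the Exo and Con groups asks what BMSC exosomes without added Wnt5a changed, and no member passed. At a Q under 0.05 edgeR called none of the 4 genes, against 0% of the 15070 genes tested as higher and 0.00664% as lower, and DESeq2 also called none, against 1.52% of the genes it gave an adjusted p. At an unadjusted p under 0.05 there were 2 of the 4, Vim and Nes, against 14.9% of all genes. Vim had a log2FC of -0.37 (SE 0.11, interval -0.62 to -0.13, edgeR Q 0.265), and its Exo libraries all lay below its Con libraries, as for 12.4% of the genes tested. Nes had a log2FC of -0.33 (SE 0.12, interval -0.60 to -0.06, edgeR Q 0.289), Gfap of -0.19 (SE 0.12, interval -0.46 to 0.08, edgeR Q 0.438) and Synm of 0.31 (SE 0.17, interval -0.07 to 0.69, edgeR Q 0.394). Without Con replicate 1 the log2FC was -0.04 for Gfap, -0.26 for Vim, -0.45 for Nes and 0.14 for Synm, and again none passed, with edgeR Q from 0.146 to 0.836.

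The comparison of the pLV-Exo-Wnt5a and Con groups sets the modified exosomes against medium alone. It shares the Con libraries with the comparison above and the pLV-Exo-Wnt5a libraries with the first. Gfap was higher in all 3 pLV-Exo-Wnt5a libraries than in any Con library, as were 7.67% of the 15089 genes tested, with a log2FC of 0.66 (SE 0.12, interval 0.39 to 0.92). Its edgeR Q was 0.129, although it ranked 22 by p. EdgeR called none of the 4 genes, against 0.0795% of the genes tested as higher and 0.00663% as lower. At an unadjusted p under 0.05 there was 1 of the 4, Gfap, against 8.35% of all genes, and DESeq2 on the same libraries called 1, also Gfap (adjusted p 0.000133), against 0.58% of the genes it gave an adjusted p. Without Con replicate 1, the library with the high Gfap value, the Gfap log2FC was 0.82 with an edgeR Q of 3.79e-05.

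The other 3 genes were closer to Con. Vim had a log2FC of 0.24 (SE 0.13, edgeR Q 0.649), Nes of 0.20 (SE 0.17, edgeR Q 0.758) and Synm of 0.20 (SE 0.17, edgeR Q 0.749). Without Con replicate 1 these were 0.36, 0.09 and 0.03, with edgeR Q from 0.342 to 0.963. The Nes value turned to -0.04 without pLV-Exo-Wnt5a replicate 3.

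Ratios of counts within a library need no scaling between libraries, so they show directly whether members changed unequally. The ratio of Gfap to Synm counts was 207, 177 and 199 in pLV-Exo-Wnt5a replicates 1, 2 and 3. It was 109, 88.0 and 103 in Exo libraries and 226, 105 and 120 in Con libraries. The pLV-Exo-Wnt5a and Exo libraries did not overlap, and the log2 ratio differed by 0.96 (two-sided exact permutation p = 0.1, which is the smallest that 3 against 3 libraries allow). Over the 9 ratio comparisons made, the Benjamini-Hochberg adjusted exact p was 0.386 here and at least as high in all others.

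The ratio of Gfap to Vim counts was 1.91, 2.40 and 1.71 in pLV-Exo-Wnt5a libraries, 1.50, 1.79 and 1.75 in Exo libraries and 1.55, 1.39 and 1.46 in Con libraries. The pLV-Exo-Wnt5a libraries overlapped those of Exo (log2 difference 0.25, exact permutation p = 0.3) but not those of Con (log2 difference 0.44, exact permutation p = 0.1). For Gfap to Nes, the groups overlapped in all 3 comparisons, with log2 differences of 0.35, 0.14 and 0.49 for pLV-Exo-Wnt5a minus Exo, Exo minus Con and pLV-Exo-Wnt5a minus Con (exact permutation p = 0.3, 0.7 and 0.3). Single libraries moved these differences. For pLV-Exo-Wnt5a minus Exo, that of Gfap to Vim was 0.11 without pLV-Exo-Wnt5a replicate 2 and 0.36 without replicate 3, and that of Gfap to Nes 0.16 and 0.57. Without Con replicate 1, the differences from Con were 0.42 for Exo and 0.77 for pLV-Exo-Wnt5a in Gfap to Nes, and 0.23 and 0.48 in Gfap to Vim. For Gfap to Synm, the Exo difference from Con was -0.51 with that library and -0.17 without it, and the pLV-Exo-Wnt5a difference was 0.45 and 0.79. Whether Gfap rose more than Vim or Nes after Wnt5a-modified exosomes was thus not resolved with 3 libraries per group.

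**Figure D4:**
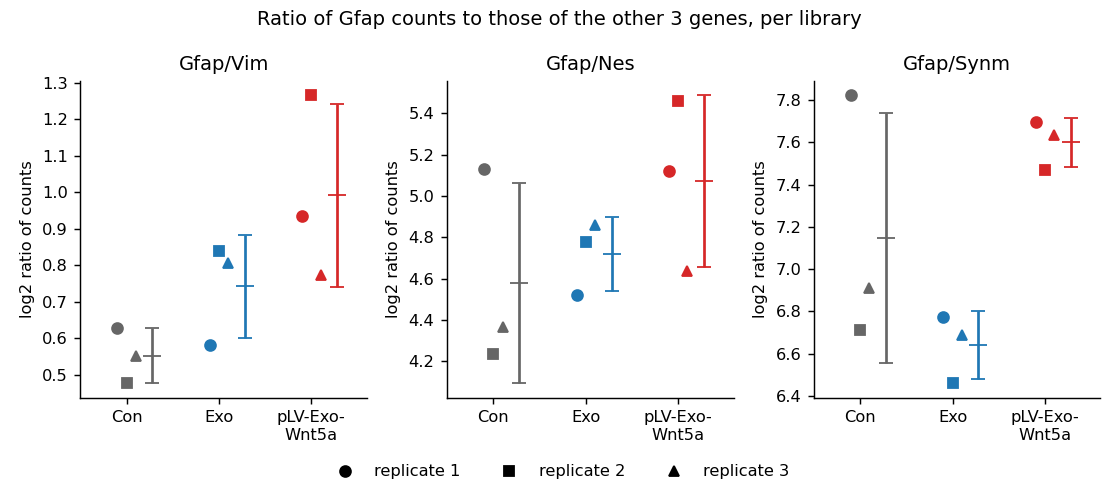
Log2 ratio of Gfap counts to Vim, Nes and Synm counts (y axes, which do not start at 0) in each library by group, with group means ± SD (n = 3). For Gfap to Synm the 3 pLV-Exo-Wnt5a libraries lie above the 3 Exo libraries, and Con replicate 1 lies above both.

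Within groups the members did not vary as a unit. After the group mean was taken from log2 CPM, the Pearson correlation over the 9 libraries was 0.49 for Gfap with Vim and 0.45 for Vim with Nes. It was -0.83 for Gfap with Synm, -0.77 for Vim with Synm and -0.51 for Gfap with Nes. These values describe 9 libraries whose scaling is shared, and Con replicate 1 had large deviations for all 4 genes. For Gfap the deviations were -0.020 to 0.027 in exosome libraries and -0.15 to 0.28 in Con libraries, so its correlations rest mainly on Con libraries. By Spearman rank, Gfap had a correlation of 0.35 with Vim, -0.52 with Synm and -0.53 with Nes. Vim and Synm deviated to the same side in only 1 of the 9 libraries.

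The genes most like each member were taken as the 5 with the highest Pearson correlation of log2 CPM over the 9 libraries, which fall in 3 groups, so that a shared difference between groups is enough for a high value. For Gfap they were Serpina3n, a serine protease inhibitor (r = 0.987), C4b, a complement component (0.986), Azin2, an antizyme inhibitor (0.984), H2-D1, an MHC class I heavy chain (0.970) and Clu, the secreted chaperone clusterin (0.970). Serpina3n went from 35.9 ± 0.944 CPM in Exo libraries to 241 ± 21.8 CPM in pLV-Exo-Wnt5a libraries (SD, n = 3 each), with an edgeR Q of 2.64e-08. Serpina3n, C4b and H2-D1 have near-identical relatives, so their counts are uncertain where reads could be split among copies. For Vim the genes were Apcdd1, an inhibitor of Wnt signalling at the membrane (r = 0.991), Pcp4l1 (0.985), Stat3 (0.982), Eef2k, the kinase of elongation factor eEF2 (0.979) and Parp3, a poly(ADP-ribose) polymerase (0.977).

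The lists thus differed between Gfap and Vim, and Apcdd1 went from 55.9 ± 4.62 CPM in Exo libraries to 88.7 ± 16.3 CPM in pLV-Exo-Wnt5a libraries (SD, n = 3 each, edgeR Q 0.0369). Of the other genes most like Vim, Parp3 and Stat3 passed in this comparison (edgeR Q 0.0167 and 0.0498). Pcp4l1 and Eef2k did not (edgeR Q 0.229 and 0.225). For Nes the genes most alike were Nup50, a nuclear pore protein (r = 0.972), Ano6 (0.949), Plce1, a phospholipase C (0.947), Il17rd (0.942) and the scaffold gene Iqgap1 (0.932). For Synm they were Gria1, an AMPA receptor subunit (r = 0.987), Rapgef5 (0.975), Npepps, an aminopeptidase (0.972), Clmp (0.971) and Cir1 (0.969). None of these 10 genes passed the edgeR test between pLV-Exo-Wnt5a and Exo, with Q from 0.0860 for Iqgap1 to 0.988 for Npepps.

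Genes that work with these filaments, and markers of cell types, were described from 16 lists of 170 genes, 168 of them in the table. In pLV-Exo-Wnt5a versus Exo, edgeR called 2 of the 143 listed genes tested higher and 1 lower, against 0.344% of all genes tested called higher and 0.0925% called lower. At an unadjusted p under 0.05 there were 37, against 12% of all genes, and DESeq2 called 21, against the 3% given above. The gene called lower was Dcx, a microtubule protein of young neurons (log2FC -0.60, SE 0.08, edgeR Q 0.0113). Those called higher were Stat3, the transcription factor that acts on the Gfap gene in astrocytes (log2FC 0.43, SE 0.08, edgeR Q 0.0498), and Foxj1, the ciliogenesis factor of ependymal cells (log2FC 0.58, SE 0.10, edgeR Q 0.0451). In Exo versus Con edgeR called 0 of 143, with 33 at an unadjusted p under 0.05 (14.9% of all genes) and 8 called by DESeq2 (1.52% of its genes). In pLV-Exo-Wnt5a versus Con edgeR called 0 of 142, with 24 at an unadjusted p under 0.05 (8.35% of all genes) and 3 called by DESeq2 (0.58% of its genes). Without Con replicate 1 these edgeR counts were 0 and 1.

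Stat3 was the only gene called by edgeR of the 22 regulators tested. Of these, 11 lay above 0 and 11 below (median log2FC -0.03, against 0.005 over all genes tested). DESeq2 called 4 of them, Stat3, Fos, Junb and Nfib, all but Stat3 named after their values were seen. Fos had a log2FC of 0.76 (edgeR Q 0.0563), Junb of 0.58 (edgeR Q 0.116) and Nfib of -0.49 (edgeR Q 0.102). Stat3 stood at 308 to 380 CPM in pLV-Exo-Wnt5a libraries, 244 to 272 CPM in Exo libraries and 278 to 315 CPM in Con libraries. The pLV-Exo-Wnt5a and Exo libraries did not overlap, and the pLV-Exo-Wnt5a and Con libraries did. Its call lay at the threshold and held under 8 of the 15 alternatives, with a log2FC of 0.33 to 0.50, and was lost without Exo replicate 2 (edgeR Q 0.292), Exo replicate 3 (0.0836), pLV-Exo-Wnt5a replicate 1 (0.145) or pLV-Exo-Wnt5a replicate 3 (0.0839), and under 3 other settings (0.0507 to 0.0767). The Foxj1 call held under 9 of the 15 and was lost without the same libraries, with edgeR Q of 0.269, 0.0836, 0.155 and 0.108, with total counts as the only scaling (0.0570) and with edgeR on all 9 libraries (0.0923). The Dcx call held under 11 and was lost without Exo replicate 2 (edgeR Q 0.113) or pLV-Exo-Wnt5a replicate 1 (0.0510), with edgeR on all 9 libraries (0.312) and with DESeq2 on all 9 (adjusted p 0.0544).

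No other filament gene passed the edgeR test in any of the 3 comparisons. Of 10 other filament and filament-related genes tested (peripherin, the neuronal filament genes, syncoilin, the beaded filament genes of the lens and the Iffo genes), 0 were called by edgeR or DESeq2 in pLV-Exo-Wnt5a versus Exo, 2 had an unadjusted p under 0.05, both above 0, and the median log2FC was 0.01. Ina, which encodes the neuronal filament protein alpha-internexin, had a log2FC of 0.01 (edgeR Q 0.977), and Nefl, the light neurofilament chain, of -0.02 (edgeR Q 0.948). In Exo versus Con, DESeq2 called 1 of the 10, Nefl, at an edgeR log2FC of 0.45 (edgeR Q 0.265). The 3 lamins, the filaments of the nucleus, had a median log2FC of 0.11, with Lmnb1 at 0.02 (edgeR Q 0.941) and Lmnb2 at 0.11 (edgeR Q 0.608). Of the keratins, the filaments of epithelia, only Krt10 was tested, at a log2FC of -0.29 (edgeR Q 0.653). None of the lamins and keratins was called by DESeq2 or had an unadjusted p under 0.05.

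EdgeR called no linker, kinase or turnover gene either. Of 10 cytolinkers tested 0 were called, with a median log2FC of -0.04, and plectin (Plec), which ties intermediate filaments to other structures, stood at 0.12 (edgeR Q 0.501) and talin (Tln1) at 0.11 (edgeR Q 0.607). Of 15 kinase and phosphatase genes that act on filaments 0 were called, with a median of -0.01, Camk2b at 0.07 (edgeR Q 0.812) and Ppp2ca at -0.04 (edgeR Q 0.813). Of 9 chaperone and turnover genes 0 were called, with a median of 0.04, the protease Capn2 at 0.002 (edgeR Q 0.993) and the ubiquitin ligase Trim32 at 0.02 (edgeR Q 0.940). At an unadjusted p under 0.05 these 3 lists held 1, 1 and 2 genes, and DESeq2 called 0, 0 and 2. The 2 chaperone and turnover genes were Hspb8 at 0.78 (edgeR Q 0.0691) and Capn1 at 0.42 (edgeR Q 0.114), named after their values were seen. Of the 9 in that list, 8 lay above 0 and 1 below.

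**Figure D5:**
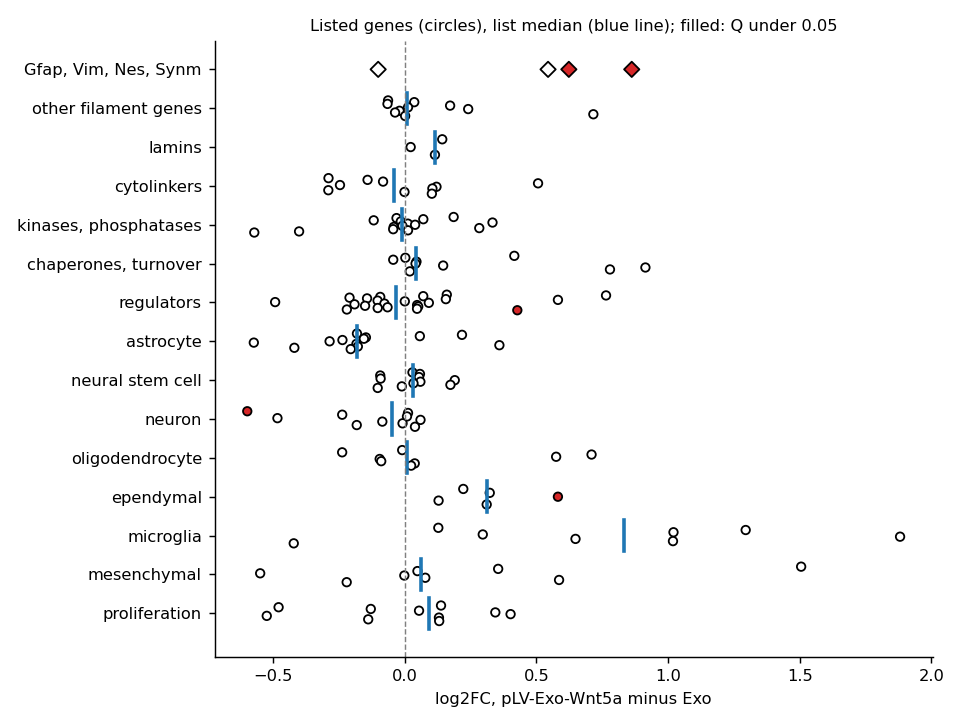
Log2FC of pLV-Exo-Wnt5a minus Exo (x axis) for the 4 genes (diamonds) and for each tested gene of 14 lists (circles, y axis, with vertical offsets only to separate points), with blue lines for list medians and filled symbols for Q under 0.05. Stat3, Dcx and Foxj1 are the filled circles, and the keratin and endothelial lists, with 1 and 2 tested genes, are not drawn.

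The other astrocyte markers lay mostly on the opposite side of 0 from Gfap, without passing the test. Of 13 tested, 10 lay below 0 in pLV-Exo-Wnt5a versus Exo, with a median log2FC of -0.18 against 0.005 over all genes. None was called by edgeR, and 8 had an unadjusted p under 0.05, of which 6 lay below 0 and 2 above, Ntsr2 (0.36) and Aldh1l1 (0.22). DESeq2 called 4, of which Slc1a2, Slc1a3 and Fgfr3 lay below 0 and Ntsr2 above, all named after their values were seen. Glul, the glutamine synthetase of astrocytes, stood at 1474 to 1530 CPM in pLV-Exo-Wnt5a libraries and at 1645 to 1766 CPM in Exo libraries (log2FC -0.18, SE 0.06, edgeR Q 0.226). For 6 of the 13 the pLV-Exo-Wnt5a libraries all lay below the Exo libraries, as for 8.9% of all genes tested, and for 1 all lay above. The summed level of the list was 6138 to 6707 CPM in pLV-Exo-Wnt5a libraries, 6881 to 7077 CPM in Exo libraries and 7045 to 7766 CPM in Con libraries.

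Markers of other cell types whose summed level was, like Gfap and Vim, higher in pLV-Exo-Wnt5a than in Exo libraries are given with their values, and their part in the result was not tested. The 11 microglia markers summed to 13.3 to 18.3 CPM in pLV-Exo-Wnt5a libraries, 8.27 to 9.65 CPM in Exo libraries and 15.4 to 17.5 CPM in Con libraries, with none at 0 over a whole group. Of the 8 tested, 7 lay above 0 in pLV-Exo-Wnt5a versus Exo (median log2FC 0.83) and 0 were called by edgeR, with 4 at an unadjusted p under 0.05 and 3 called by DESeq2. C1qb, a complement subunit of microglia, had a log2FC of 1.02 (edgeR Q 0.0755) and Cd68, a lysosomal protein of phagocytes, of 0.30 (edgeR Q 0.693). The 6 ependymal markers summed to 50.8 to 67.2 CPM in pLV-Exo-Wnt5a libraries, 39.6 to 44.0 CPM in Exo libraries and 39.1 to 49.0 CPM in Con libraries. Most of this sum was Foxj1, at 53.4 ± 7.66, 36.0 ± 2.43 and 38.1 ± 4.78 CPM in the same order (SD, n = 3 each). All 5 tested lay above 0 in pLV-Exo-Wnt5a versus Exo, with Foxj1 the only one called by edgeR. The other tested markers had means of 0.464 to 1.97 CPM over the 9 libraries, with edgeR Q of 0.750 to 0.916.

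Vim is also a gene of mesenchymal cells, the kind that shed the exosomes. The 10 mesenchymal markers summed to 137 to 151 CPM in pLV-Exo-Wnt5a libraries, 156 to 166 CPM in Exo libraries and 150 to 177 CPM in Con libraries. Most of this sum was Thy1, at 117 ± 6.25, 138 ± 3.75 and 130 ± 11.2 CPM in the same order (SD, n = 3 each). Of 8 tested, 5 lay above 0 and 3 below in pLV-Exo-Wnt5a versus Exo (median log2FC 0.06, against 0.005 over all genes), from -0.55 for Col3a1, a fibrillar collagen, to 1.51 for Acta2, the smooth muscle actin, both named after their values were seen. None of them was called by edgeR, 3 had an unadjusted p under 0.05 and DESeq2 called 2, with Pdgfrb, a receptor of pericytes and fibroblasts, at a log2FC of 0.08 (edgeR Q 0.852) and Thy1 at -0.22 (edgeR Q 0.155). Of the 5 endothelial markers in the table, 1 was at 0 in each group, though not the same gene in all groups. EdgeR and DESeq2 called none of the 2 tested, neither had an unadjusted p under 0.05, and Kdr stood at -0.18 (edgeR Q 0.813) and Pecam1 at 0.77 (edgeR Q 0.622).

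NSC markers other than Nes lay near 0. Of 11 tested, 7 lay above 0 and 4 below in pLV-Exo-Wnt5a versus Exo (median log2FC 0.03), 0 were called by edgeR or DESeq2 and 0 had an unadjusted p under 0.05. Sox2, a transcription factor of NSCs, had a log2FC of -0.10 (edgeR Q 0.822) and Fabp7, a radial glial fatty acid binding protein, of 0.06 (edgeR Q 0.894). Of 10 proliferation genes 0 were called by edgeR and 2 by DESeq2, with 2 at an unadjusted p under 0.05, Pcna at 0.13 (edgeR Q 0.643) and Mcm2 at 0.34 (edgeR Q 0.161). Of 8 oligodendrocyte markers 0 were called by edgeR and 1 by DESeq2, with 4 above 0 and 4 below, Olig1 at -0.10 (edgeR Q 0.709) and Cnp at -0.01 (edgeR Q 0.975). The 3 at an unadjusted p under 0.05, named after their values were seen, were the myelin genes Mbp at 0.57 (edgeR Q 0.161) and Mag at 0.71 (edgeR Q 0.149, the DESeq2 call), whose pLV-Exo-Wnt5a libraries all lay above the Exo libraries, and the progenitor gene Cspg4 at -0.24 (edgeR Q 0.336). Of 10 neuron markers 4 lay above 0 and 6 below (median log2FC -0.05), with 3 at an unadjusted p under 0.05, all below 0, and 2 called by DESeq2, Dcx and Map2, a microtubule protein of dendrites (log2FC -0.48, edgeR Q 0.0759, named after its value was seen). Dcx was the only edgeR call, at 66.2 to 76.4 CPM in pLV-Exo-Wnt5a libraries, 98.7 to 117 CPM in Exo libraries and 50.5 to 97.9 CPM in Con libraries.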

How the data were processed

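The 9 NSC libraries fall in 3 groups of 3 (Con, Exo, pLV-Exo-Wnt5a). Raw gene counts, as whole numbers without normalization, were deposited by the authors. The paper names HISAT2 for alignment, and the submitters' processing notes name Bowtie2, RSEM 1.3.1 and DESeq2 1.4.5 with no role. The build and the counting program are not given in the sources used here, so whether the counts are reads or rounded estimates is not settled. Reads of rat cells counted on a mouse annotation could be lost where sequences differ, which was not tested. No column was left without a sample, and replicates differed by more than sampling noise. Whether replicates were separate cultures is not stated, so p-values measure the spread between these samples.

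For each pair of groups, filterByExpr removed low genes, TMM gave the scaling, and edgeR 4.0.16 (R 4.3.3) gave quasi-likelihood p-values, with Q adjusted by Benjamini-Hochberg over all genes tested and a threshold of 0.05. CPM values, and the log2 CPM used for distances and likeness (prior count 2), were scaled over all 9 libraries. Scripts were tested on simulated data. Alternatives were other normalizations (RLE, upper quartile, total counts), filtering nothing or requiring 10 counts per library throughout, DESeq2 1.42.0, fits of all 9 libraries, a replicate block and leaving out each library.

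The members and the lists were chosen with earlier results of these data known. Of each list, genes with a Q under 0.05 in any comparison were named, and otherwise the 2 with the highest mean CPM, besides the 5 genes most like each member. A gene that the rule names among the astrocyte markers is not reported here. Intervals and counting errors cover counting or replicate error only. A count of 3, taken as the floor, was 0.0742 to 0.0916 CPM, and all 4 genes lay above it in every library.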

Additional observations from a re-analysis of the deposited data

How the results depend on the processing

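Gfap in pLV-Exo-Wnt5a versus Exo passed under all 15 alternatives. In the same comparison the Vim call was lost with total counts as the only scaling (log2FC 0.62, Q 0.0541) and with edgeR on all 9 libraries (0.61, Q 0.0724), and leaving out a library gave 0.50 to 0.74. The Nes call was gained with no filter (0.54, Q 0.00654), as was that of Vim in Exo versus Con (-0.37, Q 0.0347). Gfap in pLV-Exo-Wnt5a versus Con passed with no filter (0.67, Q 2.18e-06), DESeq2 on 2 groups (0.66, Q 0.000133), DESeq2 on all 9 libraries (0.66, Q 5.46e-06), edgeR on all 9 libraries (0.67, Q 0.0265) and the replicate block (0.67, Q 0.00361), and leaving out a library gave 0.58 to 0.82. Signs turned for Nes in pLV-Exo-Wnt5a versus Con, at -0.042 to 0.38 on leaving out a library (the lowest without pLV-Exo-Wnt5a replicate 3), and for the log2 ratio of Gfap to Nes in Exo versus Con, at -0.030 to 0.42 (the lowest without Con replicate 2).

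Of the 4 genes, the number called in pLV-Exo-Wnt5a versus Exo was 2, but 3 with no filter, 1 with total counts only and with edgeR on all 9 libraries, and 1 to 2 on leaving out a library. In Exo versus Con it was 0, but 1 with no filter. In pLV-Exo-Wnt5a versus Con it was 0, but 1 with no filter, either DESeq2 fit, edgeR on all 9 libraries and the replicate block, and 0 to 1 on leaving out a library. Of the listed genes, 3 were called in pLV-Exo-Wnt5a versus Exo, against 1 with total counts only, 17 with no filter, 21 and 11 with DESeq2 on 2 groups and on all 9 libraries, 0 with edgeR on all 9 libraries, 6 with the replicate block and 0 to 5 on leaving out a library. In Exo versus Con 0 became 11 with no filter, 8 and 10 with the DESeq2 fits and 0 to 7 on leaving out a library (7 without Con replicate 3). In pLV-Exo-Wnt5a versus Con 0 became 5 with no filter, 3 and 8 with the DESeq2 fits, 1 with the replicate block and 0 to 1 on leaving out a library (1 without Con replicate 1). For all of these, the cause was not tested. Replicates share only a number (correlations of -0.201 to 0.0634), so the block is no pairing of samples, and among the 4 genes it changed the Gfap call against Con alone. Where leaving out a library left 2 in a group, the spread was pooled over both groups. With 3 libraries per group no exact permutation test could pass 0.05.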
